A study of Mus musculus with 12 samples.

Results

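The genes described here are 7 matrix metalloproteinases (Mmp2, Mmp3, Mmp9, Mmp10, Mmp13, Mmp14 and Mmp19) and 3 tissue inhibitors of metalloproteinases (Timp1, Timp2 and Timp3). They were chosen by gene name, and all 10 are among the 20844 genes that both deposited tables list. All 10 passed the filter on low counts in every comparison. RNA from mouse embryonic fibroblasts, cultured cells derived from mouse embryos at day 13.5 to 14.5, was sequenced in 12 libraries, 3 for each of 4 groups, at 4 days after infection with adenovirus. The cells called Nrf2 cells here were homozygous for the allele LSL-Nrf2D29H (gene symbol Nfe2l2), which the study describes as silent until Cre acts. With Cre adenovirus they formed the Nrf2 D29H group, and with empty adenovirus they formed the group labelled Nrf2 KO. The Keap1 cells were homozygous for the allele CA-Keap1R554Q, which gives Keap1 R554Q after Cre adenovirus and is labelled Keap1 WT after empty adenovirus. Every group therefore carried an engineered allele and received virus, at a multiplicity of infection of 500. No group paired Cre virus with an allele that Cre leaves unchanged, so Cre and the mutant protein cannot be told apart in either comparison. Likewise, the targeted gene and the source of the cells cannot be told apart when Nrf2 cells and Keap1 cells are set side by side. The labels do not say whether replicates came from separate embryos or cultures, so p-values measure the spread between these libraries, which may be technical.

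Matrix metalloproteinases are zinc enzymes that cut collagens and other proteins of the extracellular matrix, and most are secreted as inactive proenzymes. TIMPs bind the active site and block it; TIMP-2 also takes part in activating pro-MMP2 at the cell surface together with MMP14, a membrane-anchored enzyme. Fibroblasts are a main source of both classes in connective tissue, and several of the secreted enzymes are classical targets of the AP-1 transcription factors. NRF2 is a transcription factor that switches on antioxidant genes, and KEAP1 is the adaptor that marks it for degradation.

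Total counts ran from 14963004 in the library labelled Nrf2 KO replicate 3 to 23818477 in the one labelled Nrf2 KO replicate 2. Nfe2l2 had 40.2 to 46.5 CPM (read counts made comparable between all 12 libraries for depth) in the libraries labelled Nrf2 KO and 49.6 to 57.1 CPM in Nrf2 D29H, so its reads were present where the label says knockout. A gene-level count does not tell a silenced from an active allele, and the group is called "labelled knockout" below. The NRF2 target Nqo1 rose from 8.82 CPM in labelled knockout to 119 CPM in Nrf2 D29H (adjusted p 2.5e-16 in edgeR) and from 33.2 to 351 CPM between Keap1 WT and Keap1 R554Q (adjusted p 1.1e-13). Each of 8 fibroblast markers was above 1 CPM, with summed levels of 14136 to 19631 CPM, and each of 8 neutrophil markers was at or under 1 CPM in every library. In bulk RNA, fewer cells of a type and less RNA per cell cannot be told apart.

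Mmp13, Mmp3 and Mmp10 lie in this order on the plus strand of chromosome 9, at 7272514 to 7283333, 7445822 to 7455972 and 7502352 to 7510238 (positions from the deposited tables, GRCm38). They encode collagenase-3, stromelysin-1 and stromelysin-2. Their proximal promoters are shown because they are the 3 secreted members of this cluster and share 2 short motifs that no other member with a sequence held. The 110 bases before the RefSeq start (GRCm38.p6, plus strand, 5′ to 3′) are printed with the AP-1 motif (TGANTCA) and the TATA box (TATAAA) in capitals. They span chr9:7445712-7445821 for Mmp3, chr9:7502232-7502341 for Mmp10 and chr9:7272404-7272513 for Mmp13.
Mmp3: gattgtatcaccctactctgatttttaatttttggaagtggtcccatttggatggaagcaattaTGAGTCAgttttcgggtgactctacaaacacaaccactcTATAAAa
Mmp10: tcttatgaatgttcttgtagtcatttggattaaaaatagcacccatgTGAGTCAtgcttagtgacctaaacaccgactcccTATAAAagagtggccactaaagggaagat
Mmp13: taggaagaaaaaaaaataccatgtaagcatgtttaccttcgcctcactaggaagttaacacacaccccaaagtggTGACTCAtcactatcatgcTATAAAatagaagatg

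RefSeq promoters, from 250 bases before to 50 after the start, were matched for 7 of the 10 members, the others being Mmp14, Timp1, Timp2 and Timp3. Both strands were searched. The AP-1 motif was held by 3 of the 7, against 7.81% of all 32851 promoters of that length, and the TATA box by the same 3, against 13.6%. The core of the antioxidant response element, to which NRF2 binds (TGACNNNGC), was held by 1 of the 7, Timp2, where it lay 152 bases before the start on the opposite strand of the gene, against 12.4% of all promoters. The AP-1 motif and the antioxidant core can overlap in their first letters; none did in these windows. A match is a description of letters, and no binding was measured here.

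Per transcript length, the inhibitors and the membrane enzyme were the abundant members, and the secreted enzymes other than Mmp2 were low. On the deposited FPKM scale (counts scaled to transcript length and library size), Timp1 led in every group with group means from 476 in Keap1 R554Q to 641 in labelled knockout. Timp2 followed with 254 to 333 FPKM and Mmp14 with 241 to 264 FPKM. Together these 3 genes held 88.9% to 92.0% of the summed FPKM of the 10 members in each library. Timp3, an inhibitor that binds to the matrix, had 50.1 to 65.2 FPKM, and Mmp2, the gelatinase that MMP14 and TIMP-2 help to activate, had 25.6 to 56.7 FPKM. Mmp3 had 8.49 to 12.7 FPKM and Mmp19, a broadly expressed secreted enzyme, 3.11 to 4.34 FPKM. Mmp13 (0.773 to 2.48), Mmp9 (0.974 to 1.23) and Mmp10 (0.381 to 1.24 FPKM) were the lowest. Of the 45 pairs of members, 42 had the same order of group means in all 4 groups. The exceptions were Mmp2 with Timp3, Mmp9 with Mmp13, and Mmp9 with Mmp10. In Keap1 R554Q the libraries of Mmp2 and Timp3 overlapped (53.2 to 59.7 against 45.9 to 58.0 FPKM), and in the other 3 groups Timp3 was above Mmp2 in every library. Mmp9 overlapped Mmp13 in both Nrf2 groups and Mmp10 in both Keap1 groups. Timp2 and Mmp14 were nearest in Nrf2 D29H, with 244 to 268 against 238 to 244 FPKM.

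**Figure D1:**
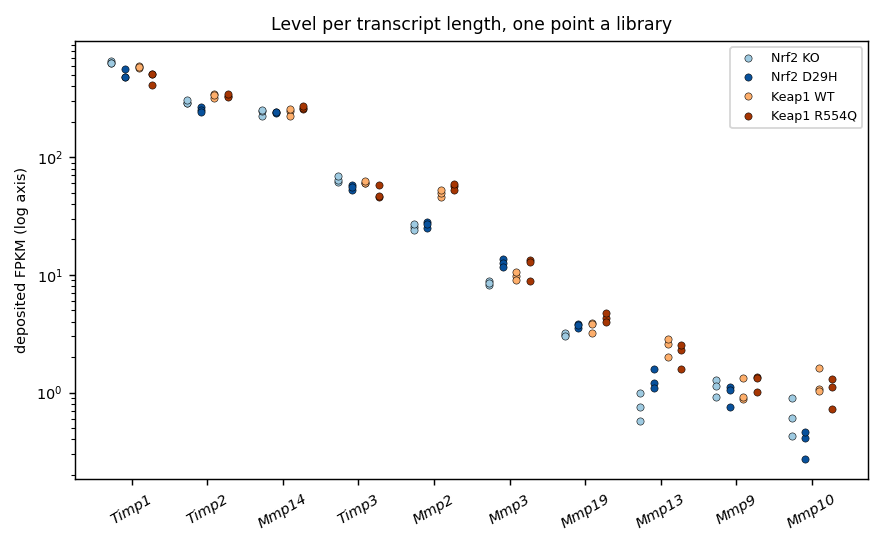
Deposited FPKM of each member on a log axis, 1 point per library, coloured by group. Timp1, Timp2 and Mmp14 are the 3 highest in every group, and no library of Mmp13, Mmp9 or Mmp10 exceeds 2.84 FPKM.

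Cre infection of the Nrf2 cells asked which members differ between cells with D29H and cells labelled knockout. Mmp3 was the 1 member past the threshold, a rise, and the 3 inhibitors were all lower without passing it. Of all 14370 genes tested, 4.75% were called, 3.47% higher and 1.28% lower. The members' median log2 fold change was -0.13, against 0.00041 for all genes tested.

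Mmp3, which encodes an enzyme that cuts many matrix proteins and also other pro-MMPs, had 15.7, 14.6 and 15.0 CPM in the labelled-knockout libraries. In Nrf2 D29H it had 24.1, 21.6 and 20.4 CPM. The lowest D29H library was above the highest labelled-knockout library, as for 12.7% of all 14370 genes tested in this comparison. Mmp3 rose by 0.54 on the log2 scale (SE 0.11, adjusted p 0.00904 in edgeR's quasi-likelihood test), which is 1.46-fold. The call held in each of 14 alternatives, with log2 fold changes of 0.47 to 0.61 and adjusted p of 0.00123 to 0.0498. Mmp3 and Mmp10 share 140 of the 50-base windows in their transcripts. With 7 more found in Gm15244, 8.39% of the Mmp3 windows also occur in other genes, and for Mmp10 the share is 8.37%.

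Mmp13, the collagenase whose promoter also held the AP-1 motif shown above, had 2.62, 2.01 and 1.50 CPM in labelled knockout and 4.21, 3.10 and 2.80 CPM in Nrf2 D29H. These groups did not overlap either, but raw counts were 23 to 61 and 62 to 92 per library, and the log2 fold change was 0.69 with an SE of 0.24 and an adjusted p of 0.0920. It passed the threshold without labelled-knockout replicate 1 (0.91, adjusted p 0.0427) and when genes with low counts were not filtered out (0.68, adjusted p 0.0480). Mmp10 had 0.730, 1.05 and 1.50 CPM in labelled knockout and 0.458, 0.674 and 0.769 CPM in Nrf2 D29H. Its groups overlapped, on 10 to 25 reads per library, and it had -0.74 on the log2 scale (SE 0.38, adjusted p 0.245). The 3 neighbours on chromosome 9, all with the 2 motifs, thus had estimates of both signs, with 1 of them called.

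The 3 inhibitors were lower in every D29H library than in any labelled-knockout library, and 0 of the 3 passed the threshold in edgeR. All 3 had an unadjusted p under 0.05 in edgeR, and DESeq2 called 2. Among all 14370 genes tested in edgeR, the unadjusted p of Timp2, 0.0470, ranked 3199, so many other genes also met this criterion. DESeq2 called 749 of 12253 genes in this comparison. Timp1 had 576, 557 and 544 CPM in labelled knockout and 487, 403 and 406 CPM in Nrf2 D29H, or -0.37 on the log2 scale (SE 0.12, adjusted p 0.0591). Timp2 had 1055, 1067 and 1120 CPM against 977, 886 and 875 CPM (-0.25, SE 0.12, adjusted p 0.211). Timp3 had 288, 302 and 323 CPM against 267, 238 and 254 CPM (-0.27, SE 0.11, adjusted p 0.136). Non-overlap in the lower direction was seen for 12.9% of all genes in this comparison, and in either direction for 25.6%. Nrf2 D29H replicate 1 was the highest of its group for all 3 inhibitors and for every enzyme but Mmp10. Its omission took the calls among all genes from 682 to 2192. Without that library Timp1 passed the threshold (-0.47, adjusted p 0.00804), as it did with DESeq2 (-0.38, adjusted p 0.00764), with GC and length offsets (-0.47, adjusted p 0.0229), with all 12 libraries in 1 fit (-0.37, adjusted p 0.0372), with no filter (-0.38, adjusted p 0.0317) and without labelled-knockout replicate 3 (-0.39, adjusted p 0.0479). The authors' deposited table gives Timp1 an adjusted p of 0.00764 and a log2 fold change of -0.35 in this comparison, and Timp3 an adjusted p of 0.0453 and -0.26. The same authors' deposited table gives Mmp3 a log2 fold change of 0.46 with an adjusted p of 0.00511.

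Mmp14 and Mmp2, the abundant enzymes, lay close together in the 2 Nrf2 groups. Mmp14 had 576, 638 and 638 CPM in labelled knockout and 619, 588 and 611 CPM in Nrf2 D29H (log2 fold change -0.03, SE 0.11, adjusted p 0.902), and an approximate 95% interval of 1.96 SE ran from -0.25 to 0.19. Mmp2 had 76.9, 73.5 and 80.4 CPM against 84.6, 73.2 and 80.0 CPM (0.04, SE 0.10, adjusted p 0.839), with an interval of -0.15 to 0.23. Both pairs of groups overlapped. Mmp9, the other gelatinase, overlapped as well, with 2.88, 4.07 and 3.53 against 3.48, 3.19 and 2.31 CPM (-0.22, SE 0.22, adjusted p 0.559). Mmp19 had 10.3, 10.9 and 10.2 CPM against 12.8, 11.5 and 12.3 CPM; the groups did not overlap, and edgeR gave 0.22 with an SE of 0.12 and an adjusted p of 0.302. Mmp19 is uncertain, because Tmem198b on the opposite strand covers 22.3% of its exonic bases and had 303% of its reads, and whether the counting used strand is not given in the sources used here.

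**Figure D2:**
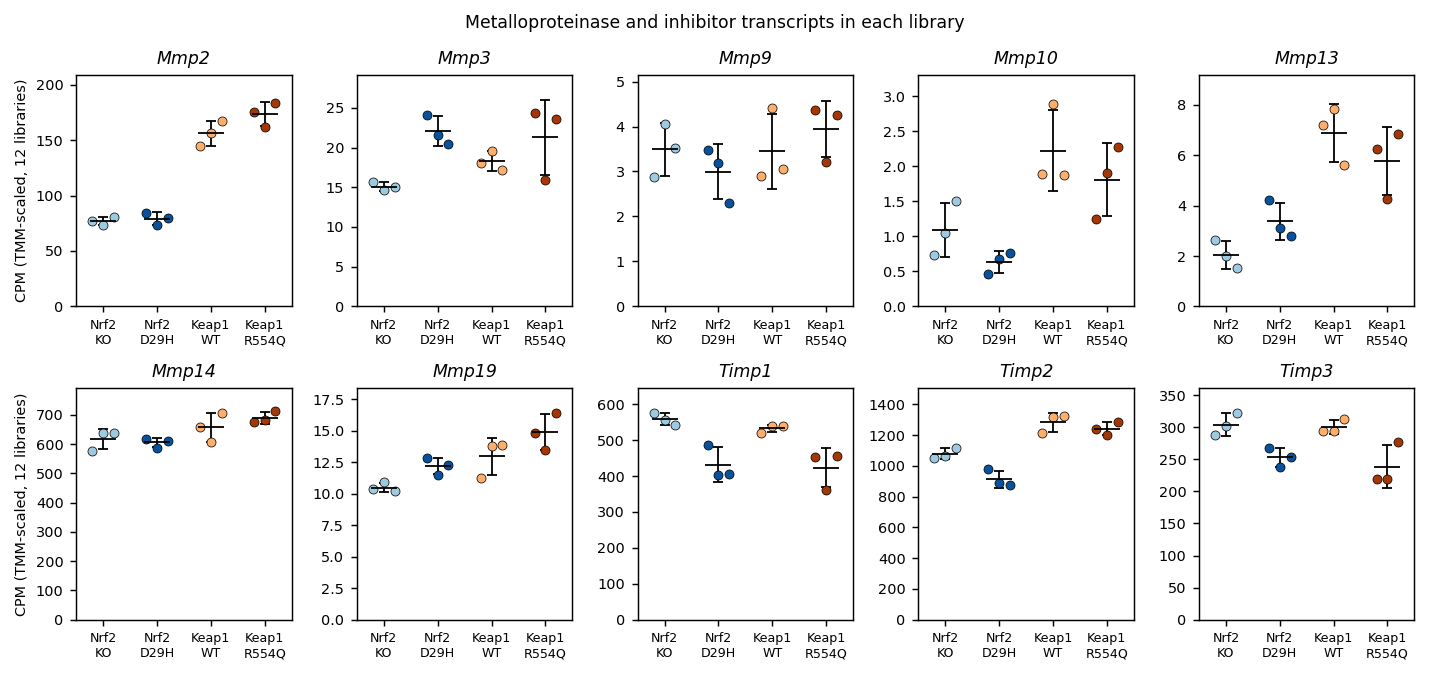
CPM of the 10 members in the 12 libraries (1 panel per gene, axes starting at 0), by group, with points for replicates 1 to 3 from left to right and bars for the mean and SD. Mmp3, Mmp13 and Mmp19 are higher and Timp1, Timp2 and Timp3 lower in every Nrf2 D29H library than in any labelled-knockout library. Timp1 and Timp3 are lower in every Keap1 R554Q library than in any Keap1 WT library. Mmp2, Mmp13 and Timp2 are lower in every Nrf2 library than in any Keap1 library.

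In the Keap1 cells the same virus contrast gave lower Timp1 and Timp3. Of the 7 enzymes 0 were called in edgeR, with 0 at an unadjusted p under 0.05 and 0 called by DESeq2 of 5 with an adjusted p. Timp1 and Timp3 were the 2 of 10 members past the threshold, both falls, where 6.17% of all 14128 genes tested were called, 3.77% higher and 2.4% lower. The members' median log2 fold change was 0.02, against -0.00099 for all genes.

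Timp1 had 521, 539 and 539 CPM in Keap1 WT and 454, 361 and 455 CPM in Keap1 R554Q. It fell by 0.33 on the log2 scale (SE 0.09, adjusted p 0.0444 in edgeR), so that it fell by 20.2%. Timp3 had 294, 294 and 313 CPM in Keap1 WT and 219, 219.9 and 277 CPM in Keap1 R554Q. It fell by 0.33 (SE 0.09, adjusted p 0.0450). Neither gene's groups overlapped, as for 14.2% of all genes in the lower and 27.5% in either direction, and the 3 R554Q libraries were uneven, with replicate 2 lowest for Timp1 and replicate 3 highest for Timp3.

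Both calls were close to the threshold. Each was lost without any single library other than Keap1 R554Q replicate 3, with adjusted p of 0.0922 to 0.172 for Timp1 and 0.105 to 0.196 for Timp3, while the log2 fold changes stayed negative, at -0.38 to -0.22 and -0.44 to -0.27 over all 6 omissions. With the replicate number as a block the adjusted p was 0.0644 for Timp1 and 0.0535 for Timp3, and with all 12 libraries in 1 fit it was 0.0633 and 0.0534. With GC and length offsets Timp1 had -0.27 and an adjusted p of 0.162, and Timp3 was still called (-0.31, adjusted p 0.0346). The authors' deposited table gives adjusted p of 0.00872 for Timp1 and 0.0127 for Timp3, with log2 fold changes of -0.30 each. In Timp3, 36.3% of the 50-base windows also occur in other genes, and Syn3 on the opposite strand covers 21.3% of its exonic bases but had only 0.0938% of its reads.

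Timp2, unlike the other inhibitors, overlapped between the 2 groups of Keap1 cells. It had 1215, 1318 and 1323 CPM in Keap1 WT and 1239, 1202 and 1286 CPM in Keap1 R554Q (log2 fold change -0.04, SE 0.08, adjusted p 0.793, interval -0.21 to 0.12). Mmp3 had 18.1, 19.6 and 17.1 CPM against 24.4, 15.9 and 23.6 CPM. Its replicate 2 was the lowest of all 6 libraries and the other R554Q libraries were the highest (0.22, SE 0.14, adjusted p 0.338). Mmp13 had 7.20, 7.85 and 5.63 CPM against 6.26, 4.26 and 6.82 CPM (-0.26, SE 0.18, adjusted p 0.415). The other 5 enzymes also overlapped between the groups, with adjusted p of 0.257 to 0.607. Mmp14 had 657, 606 and 707 CPM against 675, 683 and 713 CPM (0.08, SE 0.08). Mmp2 had 145, 156 and 168 CPM against 175, 162 and 184 CPM (0.16, SE 0.08).

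**Figure D3:**
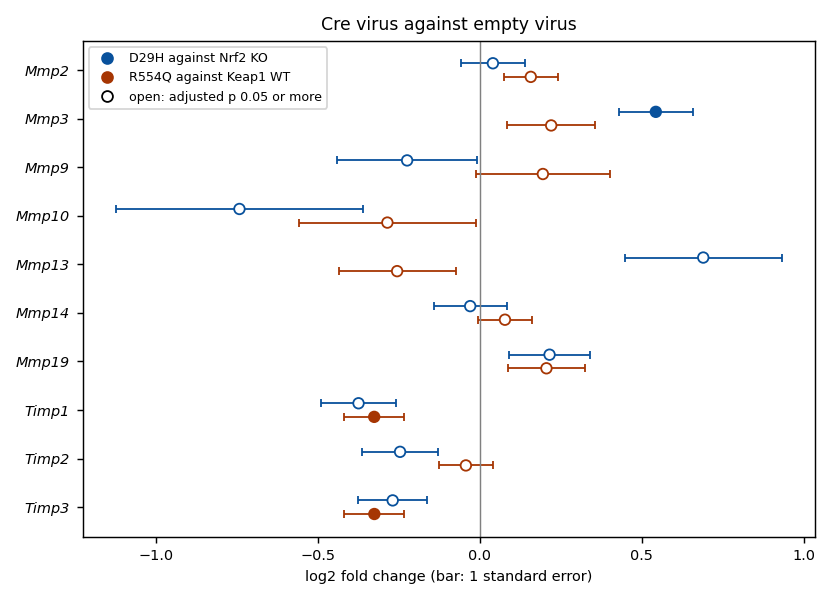
Log2 fold change of each member after Cre virus in the Nrf2 and the Keap1 cells, with bars of 1 SE; filled points passed an adjusted p of 0.05. Mmp3 is filled in the Nrf2 cells, and Timp1 and Timp3 are filled in the Keap1 cells.

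The 2 virus effects were then compared directly, as the Nrf2 effect minus the Keap1 effect in 1 fit of 12 libraries. None of the 10 members passed the threshold in edgeR, where 0.027% of 14794 genes did. At an unadjusted p under 0.05 there was 1 member, Mmp13, and DESeq2 called 0 of the 5 members to which it gave an adjusted p. Among all 14794 genes an unadjusted p of 0.0394 in edgeR ranked 1375, so 1 of 10 members is near the share of all genes. The difference for Mmp13 was 0.95 (SE 0.31, unadjusted p 0.00572, adjusted p 0.290): its effect was 0.69 in the Nrf2 cells and -0.26 in the Keap1 cells. For Mmp3 the difference was 0.33 (SE 0.18, adjusted p 0.508), with an interval of -0.03 to 0.69. So the call of Mmp3 in the Nrf2 cells is not shown to be particular to them. For Timp1 the difference was -0.04 (interval -0.32 to 0.24, adjusted p 0.941) and for Timp3 0.07 (interval -0.20 to 0.33, adjusted p 0.888). For Timp2 it was -0.19 (interval -0.44 to 0.05, adjusted p 0.577). Differences within these intervals are compatible with the data.

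The balance of the 2 classes was described as the summed FPKM of the 3 inhibitors divided by that of the 7 enzymes; both sums are of RNA, and neither enzyme activity nor protein was measured. The ratio was 3.45 to 3.82 in labelled knockout and 2.69 to 3.05 in Nrf2 D29H (3.58 ± 0.212 and 2.84 ± 0.188, SD, n = 3 each). It was 2.99 to 3.36 in Keap1 WT and 2.34 to 2.63 in Keap1 R554Q (3.14 ± 0.194 and 2.52 ± 0.151, SD, n = 3 each). In both genotypes the Cre libraries were all below the empty-virus libraries. No test was made of this ratio, since it sums members whose values are given above, and Timp1 dominates the inhibitor sum and Mmp14 the enzyme sum. The ratio of Timp2 to Mmp14, the pair involved in pro-MMP2 activation, was 1.17 to 1.28 in labelled knockout, 1.00 to 1.11 in Nrf2 D29H, 1.29 to 1.52 in Keap1 WT and 1.23 to 1.29 in Keap1 R554Q.

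**Figure D4:**
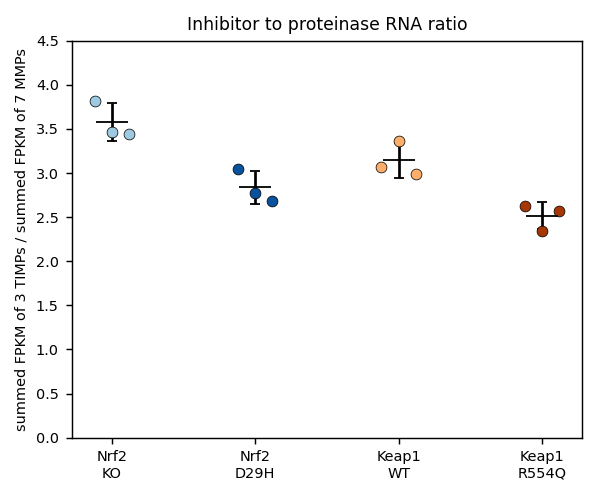
Summed FPKM of Timp1, Timp2 and Timp3 divided by the summed FPKM of the 7 enzymes, 1 point per library with the group mean and SD, axis starting at 0. The Cre group is the lower of the 2 in either genotype (2.84 against 3.58, and 2.52 against 3.14).

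Between Nrf2 cells and Keap1 cells edgeR called 3 members in the empty-virus groups and 4 in the Cre groups, and DESeq2 called 4 and 5. The edgeR counts come from the fit of all 12 libraries, in which the Cre comparison called 2 members in the Nrf2 cells (Mmp3 and Timp1) and 0 in the Keap1 cells. In the fits of their own 6 libraries, edgeR called 1 in the Nrf2 cells and 2 in the Keap1 cells, and DESeq2 called 3 and 2. Between the empty-virus groups (labelled knockout against Keap1 WT), Mmp2, Mmp10 and Mmp13 were lower in labelled knockout and no member was called higher. Between the Cre groups (Nrf2 D29H against Keap1 R554Q), Mmp2, Mmp10, Mmp13 and Timp2 were lower in Nrf2 D29H. Of all 14794 genes, 19.7% were called in the first comparison (9.58% higher, 10.1% lower) and 26.5% in the second (13.1% higher, 13.4% lower). The members' median log2 differences were -0.26 and -0.34, against -0.01 and 0.01 for all genes. In the first comparison the targeted gene, its activity state and the source of the cells differ together, and in the second the allele and the source do.

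Mmp2 had the lowest adjusted p of the members, with 73.2 to 84.6 CPM in the 6 Nrf2 libraries and 145 to 184 CPM in the 6 Keap1 libraries. The log2 difference was -1.02 (SE 0.09, adjusted p 1.9e-08 in edgeR) between the empty-virus groups and -1.13 (SE 0.09, adjusted p 3.6e-09) between the Cre groups. Mmp2 was called in each of 19 alternatives in either comparison. Mmp13 had 1.50 to 4.21 CPM in the Nrf2 libraries and 4.26 to 7.85 CPM in the Keap1 libraries, with log2 differences of -1.72 (SE 0.22, adjusted p 6.5e-06) and -0.77 (SE 0.21, adjusted p 0.00909). Without Nrf2 D29H replicate 3 the second value was -0.66, with an adjusted p of 0.0524. Mmp10 had 0.458 to 1.50 CPM against 1.25 to 2.89 CPM, on 10 to 57 reads per library. The log2 difference was -1.06 between the empty-virus groups (SE 0.31, adjusted p 0.0189) and -1.51 between the Cre groups (SE 0.34, adjusted p 0.00238). The first was not called without labelled-knockout replicate 1 (-0.83, adjusted p 0.116), labelled-knockout replicate 2 (adjusted p 0.0681) or Keap1 WT replicate 2 (-0.82, adjusted p 0.136).

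Timp2 was lower in Nrf2 D29H than in Keap1 R554Q, with a log2 difference of -0.45 (SE 0.09, adjusted p 0.000902 in edgeR), and this was called in each of 19 alternatives. Between the empty-virus groups its value was -0.25 (SE 0.09, adjusted p 0.0539). There it was called by DESeq2 (-0.24, adjusted p 0.00708), with GC and length offsets (-0.29, adjusted p 0.0123), without labelled-knockout replicate 3 (-0.28, adjusted p 0.0459) and without Nrf2 D29H replicate 1 (-0.23, adjusted p 0.0498). Timp1 and Timp3 had values of 0.07 and 0.02 between the empty-virus groups and of 0.03 and 0.08 between the Cre groups, with adjusted p of 0.553 to 0.925. Mmp3 had -0.28 (SE 0.13, adjusted p 0.151) and 0.05 (SE 0.13, adjusted p 0.788). Mmp14 had -0.09 and -0.19, and Mmp19 had -0.30 and -0.29, with adjusted p of 0.0654 to 0.537. DESeq2 called Mmp14 between the Cre groups (-0.19, adjusted p 0.0434). With GC and length offsets Mmp19 was called in both comparisons (adjusted p 0.0486 and 0.0455), and it was called between the empty-virus groups without Keap1 WT replicate 1 (-0.39, adjusted p 0.0449) and between the Cre groups without Keap1 R554Q replicate 2 (-0.36, adjusted p 0.0413). Mmp9 had 0.02 and -0.39, with adjusted p of 0.969 and 0.176.

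Markers of other cell types also differed between Nrf2 cells and Keap1 cells. Of 8 macrophage markers, 7 were called higher in labelled knockout than in Keap1 WT, and their summed level was 120 to 157 CPM in labelled knockout, 143 to 159 in Nrf2 D29H, 91.7 to 103 in Keap1 WT and 64.8 to 77.5 CPM in Keap1 R554Q. None of the 8 was at 0. Most of the sum was Lyz2, with means of 82.7 CPM in labelled knockout and 69.5 CPM in Keap1 WT. Its libraries overlapped between these 2 groups (65.5 to 97.3 against 66.0 to 75.5 CPM). The sum therefore does not show the size of the difference in the other markers. Of 4 tested chondrocyte markers 3 were called higher in labelled knockout, with summed levels of 83.4 to 95.5 CPM there, 69.5 to 79.1 in Nrf2 D29H, 57.4 to 71.3 in Keap1 WT and 60.5 to 67.2 CPM in Keap1 R554Q. Of the 8 fibroblast markers 4 were called higher and 1 lower. Their part in the differences of Mmp2, Mmp10, Mmp13 and Timp2 was not tested. After Cre, 0 of 8 macrophage markers were called in the Nrf2 comparison in edgeR (2 at an unadjusted p under 0.05, 0 by DESeq2), and 1 of 8, Lyz2, was lower in the Keap1 comparison (-0.53, adjusted p 0.00230). Of the other markers, Cldn4 (epithelial) was higher in both comparisons, with mean levels of 0.115 CPM in labelled knockout, 0.619 in Nrf2 D29H, 0.704 in Keap1 WT and 2.40 CPM in Keap1 R554Q, while the other 5 of 6 epithelial markers were at or under 1 CPM in every library. In the Keap1 comparison Des (muscle) was lower (-0.45, adjusted p 0.0326), and Pdgfra (fibroblast) was higher (0.36, adjusted p 0.0358). The part of these markers in the values of Mmp3, Timp1 and Timp3 was not tested.

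**Figure D5:**
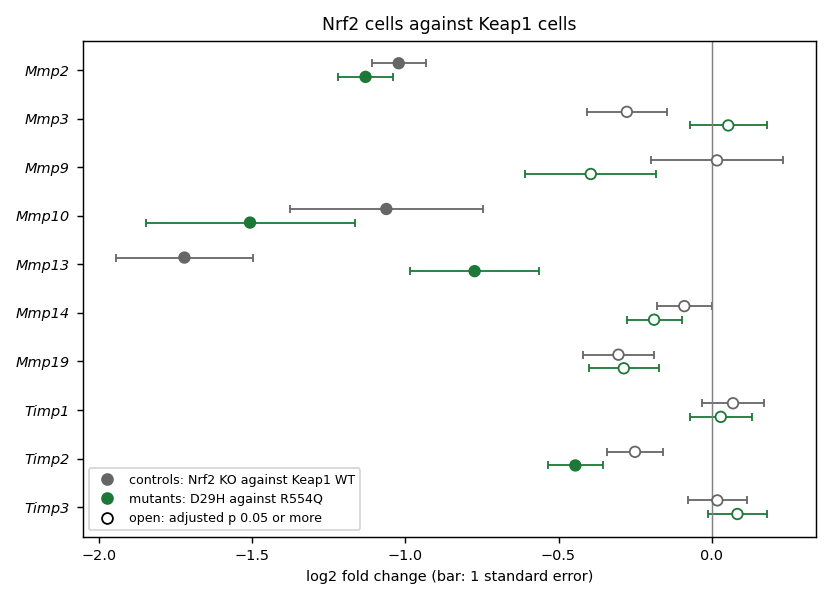
Log2 difference of each member between the Nrf2 and the Keap1 cells, for the empty-virus and the Cre groups, with bars of 1 SE; filled points passed an adjusted p of 0.05. Mmp2, Mmp10 and Mmp13 are filled and negative in both comparisons, and Timp2 is filled between the Cre groups.

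Across the 12 libraries, log2 CPM of Timp1 and Timp3 had a Pearson r of 0.85, whereas Timp2 had r of 0.30 with Timp1 and 0.24 with Timp3. Timp2 had r of 0.87 with Mmp10, 0.86 with Mmp2 and 0.69 with Mmp14. Mmp2 had r of 0.85 with Mmp13. Libraries of a group share their genotype and virus, so these values describe the groups as much as the genes. The enzyme with the largest mean absolute estimate over the 2 virus comparisons was Mmp10 (0.51). It was called in neither of them and had 10 to 57 reads per library, so this rank is uncertain. The genes most like Mmp10 were Fgf10 (r = 0.97), Wwc2 (0.96) and Desi1 (0.96). For Timp1, the inhibitor with the largest effect (0.35), they were Nmd3 (0.98), Chchd3 (0.97) and Mesdc2 (0.97). They were the highest of 10346 and 10345 genes searched.

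Other genes of the pathway were counted in 8 lists holding 111 genes. They are to be read against the 4.75% and 6.17% of all genes that edgeR called in the Nrf2 and Keap1 comparisons. DESeq2 called 749 of 12253 and 1102 of 10869 genes. In edgeR an unadjusted p of 0.0470 ranked 3199 among 14370 genes in the Nrf2 comparison. In the Keap1 comparison an unadjusted p of 0.0363 in edgeR ranked 2973 among 14128 genes. Of 16 other metalloproteinases, 6 were tested in the Nrf2 comparison, with 0 called in edgeR (1 at an unadjusted p under 0.05, 0 by DESeq2). In the Keap1 comparison 7 were tested and Mmp11 (stromelysin-3) rose (0.38, SE 0.10, adjusted p 0.0316). The medians of this list were -0.13 and 0.15 in the Nrf2 and Keap1 comparisons, against 0.00041 and -0.00099 for all genes. Of a list of 6 genes for other inhibitors, 4 were tested, and of these only Reck and Tfpi2 encode protease inhibitors, while Pcolce and Pcolce2 encode enhancers of procollagen processing. In the Nrf2 comparison 0 of the 4 were called in edgeR; the 2 at an unadjusted p under 0.05 were Pcolce (-0.29) and Pcolce2 (-0.28), and DESeq2 called Pcolce (adjusted p 0.0375). Reck had -0.20 and -0.05 in the Nrf2 and Keap1 comparisons (adjusted p 0.329 and 0.875). Tfpi2, a serine protease inhibitor, had -0.13 in the Nrf2 comparison (adjusted p 0.630) and fell in the Keap1 comparison (-0.56, SE 0.13, adjusted p 0.0171). The medians over all 4 were -0.24 and -0.12. Of 17 tested ADAM and ADAMTS family proteases and relatives, 4 were called by edgeR in the Nrf2 comparison, and DESeq2 called these and Adamts5 (-0.32, adjusted p 0.0216). Adamts6 (0.42), Adamts10 (0.45) and Bmp1, which removes the C-terminal propeptide of procollagen (0.42), rose, and Adamts1 fell (-0.37), with adjusted p of 0.0348 to 0.0432. In the Keap1 comparison 0 of the 17 were called in edgeR (4 at an unadjusted p under 0.05), and Bmp1 had 0.31 (adjusted p 0.0692 in edgeR); it was the 1 called by DESeq2 (adjusted p 0.0322). The medians were 0.03 and 0.01. The 4 protease calls were lost without Nrf2 D29H replicate 2, without Nrf2 D29H replicate 3 and without labelled-knockout replicate 2, with adjusted p up to 0.268. Those of Adamts1 and Adamts10 were also lost without labelled-knockout replicate 3. The calls of Mmp11 (adjusted p up to 0.177) and Tfpi2 (up to 0.106) were lost without Keap1 R554Q replicate 1 or 2 or Keap1 WT replicate 1 or 2, and that of Tfpi2 also without Keap1 WT replicate 3.

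The plasminogen system makes plasmin, which can activate several pro-MMPs. Plau, the urokinase gene, fell in both comparisons, with 121 and 87.6 CPM in labelled knockout and Nrf2 D29H (-0.46, SE 0.10, adjusted p 0.0118 in edgeR) and 163 and 118 CPM in Keap1 WT and Keap1 R554Q (-0.46, SE 0.08, adjusted p 0.00345). The call held in each of 6 omissions in the Keap1 comparison, and was lost without Nrf2 D29H replicate 2 or 3 in the Nrf2 comparison (adjusted p up to 0.144). In the Keap1 comparison the urokinase receptor gene Plaur rose (0.35, adjusted p 0.0162) and Serpinb2, an inhibitor of urokinase, fell (-1.01, SE 0.24, adjusted p 0.0221). These were the genes called by edgeR of 10 tested in each comparison, with 6 at an unadjusted p under 0.05 in either. DESeq2 called Plau and Anxa2 in the Nrf2 comparison and 4 genes in the Keap1 comparison, of 9 with an adjusted p. The list's medians were -0.23 and -0.20. The calls of Plaur (adjusted p up to 0.105) and Serpinb2 (up to 0.127) were lost without Keap1 R554Q replicate 1 or Keap1 WT replicate 1 or 2, and that of Serpinb2 also without Keap1 R554Q replicate 2.

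Of 8 genes that process pro-MMPs or hold them at the cell surface, Cav1, encoding caveolin-1, fell in both comparisons (-0.43, adjusted p 0.0400, and -0.36, adjusted p 0.0221 in edgeR). In the Keap1 comparison Cd44, a hyaluronan receptor (-0.43, adjusted p 0.0237), and Itgb3, an integrin subunit (-0.32, adjusted p 0.0415), fell, and the proprotein convertase gene Pcsk5 rose (0.65, SE 0.12, adjusted p 0.00478). Cd44 had -0.40 in the Nrf2 comparison, with an adjusted p of 0.0510 in edgeR, and was called there by DESeq2 (-0.41, adjusted p 0.00755). The medians were -0.18 in both comparisons. Pcsk5 kept its call without any 1 library. Cav1 (adjusted p up to 0.164), Cd44 (up to 0.141) and Itgb3 (up to 0.180) lost theirs in the Keap1 comparison without Keap1 R554Q replicate 1 or 2 or Keap1 WT replicate 2 or 3, and Itgb3 also without Keap1 WT replicate 1. In the Nrf2 comparison Cav1 (up to 0.288) lost its call without Nrf2 D29H replicate 2 or 3 or labelled-knockout replicate 2 or 3.

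The list of AP-1 and ETS factor genes, 14 of them tested, also holds Runx2, a RUNX factor. In the Nrf2 comparison 0 were called in edgeR; the 4 at an unadjusted p under 0.05 were Fosl1, Fosl2, Junb and Runx2, and DESeq2 called Fosl2 (adjusted p 0.0408). In the Keap1 comparison Fosl2 (0.45, SE 0.08, adjusted p 0.00279) and Fosl1 (0.51, SE 0.10, adjusted p 0.00471), which encode subunits of AP-1, rose and Atf3 fell (-0.66, SE 0.15, adjusted p 0.0170). In the Nrf2 comparison Fosl2 had 0.28 and Fosl1 0.27, each with an adjusted p of 0.115. Fosl2 kept its call without any 1 library. Fosl1 lost it without Keap1 R554Q replicate 1 (adjusted p 0.0515), and Atf3 (up to 0.0778) without Keap1 R554Q replicate 1 or 2 or Keap1 WT replicate 2 or 3. The medians were -0.06 and 0.02. The difference between the virus effects was -0.16 for Fosl2 and -0.23 for Fosl1, with adjusted p of 0.641 and 0.551.

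Of cytokine and growth factor genes that induce metalloproteinases, 0 of 14 tested were called in the Nrf2 comparison in edgeR (3 at an unadjusted p under 0.05, 0 by DESeq2 of 11 with an adjusted p). Of 13 tested in the Keap1 comparison, the EGF receptor ligands Ereg (-0.39, adjusted p 0.0118 in edgeR) and Hbegf (-0.38, adjusted p 0.0139) fell, and DESeq2 called these and Tgfb3 (-0.22, adjusted p 0.0275). Of 18 matrix substrates, Eln, encoding elastin, fell in the Nrf2 comparison (-0.35, adjusted p 0.0400 in edgeR), where DESeq2 also called Sparc (-0.41, adjusted p 0.0149), and Nid1, encoding nidogen-1, rose in the Keap1 comparison (0.46, SE 0.09, adjusted p 0.00470). The medians were -0.02 and -0.05 for the cytokine list and -0.14 and -0.09 for the substrates. Nid1 kept its call without any 1 library. Ereg and Hbegf lost theirs without Keap1 R554Q replicate 1 and, for Ereg, without Keap1 WT replicate 2 and, for Hbegf, without Keap1 WT replicate 1 or 3 (adjusted p up to 0.0767). Eln lost its call without Nrf2 D29H replicate 2 or 3 or labelled-knockout replicate 2 or 3 (up to 0.215).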

How the data were processed

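Per the file headers, each of the 2 deposited tables, 1 for the Nrf2 and 1 for the Keap1 groups, holds raw counts of reads and FPKM for each library, a normalised signal averaged over each group, and a log2 fold change with its p-value, raw and adjusted. STAR, DESeq2 and mm10 are named in the submitters' processing notes; their versions and roles, the annotation and the use of strand are not given in the sources used here. Counts were tested in R 4.3.3 with edgeR 4.0.16 (filterByExpr, TMM scaling, glmQLFit and glmQLFTest, Benjamini-Hochberg adjustment over all genes tested, calls at an adjusted p under 0.05). The Nrf2 and Keap1 comparisons used their own 6 libraries, and the other 3 comparisons 1 fit of all 12. An SE was derived as the size of a log2 fold change over the root of its F statistic. Levels between genes were compared on the deposited FPKM, without a test.

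All 10 members were named throughout. From each of 8 lists the genes called in the Nrf2 or Keap1 comparison were named (at most 4), with Nqo1 as a check. For the enzyme and the inhibitor with the largest mean absolute effect, the 3 most correlated genes were named, among those that code for protein and average 100 counts or more. Nfe2l2 was added after its values were seen. The members and lists were chosen with earlier results of these data known. No replicate pair looked like a duplicate: their chi-square over its degrees of freedom was 4.95 to 25.1. Alternatives were other scaling, filters, DESeq2 1.42.0, a replicate block, a stricter threshold, all libraries in 1 fit, omission of each library and, chosen after seeing the data, offsets for GC content and length. The tests were tried on simulated data.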

Additional observations from a re-analysis of the deposited data

How the results depend on the processing

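Same-numbered libraries had deviations correlated at -0.1, -0.0718 and -0.0242 in the Nrf2 cells and 0.0324, -0.174 and -0.0243 in the Keap1 cells. With 3 libraries per group, and with replicate numbers taken from the sample titles, these values cannot tell whether samples were paired. Column names of the labelled-knockout libraries carry other numbers than their titles. With the replicate block, 728 genes were called in the Nrf2 comparison, 484 in the Keap1 comparison, 0 for the difference between the effects, 2797 between the empty-virus groups and 3741 between the Cre groups, against 682, 872, 4, 2911 and 3927 without it. Among the members the block changed the calls of Timp1 and Timp3 in the Keap1 comparison and no other. With no filter on low counts 1195, 1502 and 32 genes were called in the first 3 comparisons. At an adjusted p under 0.01 the counts were 138, 242, 0, 1690 and 2221. Offsets for GC content and length gave 502 in the Keap1 comparison. For the difference, a mean of at least 50 counts gave 1 and DESeq2 gave 60. DESeq2 called 402 genes higher and 347 lower in the Nrf2 comparison, where edgeR called 498 and 184, and 572 and 530 in the Keap1 comparison, where edgeR called 533 and 339. The cause of these shifts was not tested. Without 1 library the counts ran from 82 (without Nrf2 D29H replicate 3) to 2192 (without Nrf2 D29H replicate 1), from 238 (without Keap1 R554Q replicate 1) to 2872 (without Keap1 R554Q replicate 3), from 0 to 26, from 2047 to 3119 and from 2775 to 4364. The order of levels held for 42 of 45 pairs on counts per kilobase too.

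Among the members 23 values near 0 changed sign, each with neither value called. Offsets for GC content and length gave -0.049 for Mmp9 between the empty-virus groups and -0.037 for Timp1 between the Cre groups. Without 1 library, values ran from -0.011 to 0.10 for Mmp2 and -0.080 to 0.0018 for Mmp14 in the Nrf2 comparison. For the difference they ran from -0.051 to 0.10 for Mmp19, -0.16 to 0.0044 for Timp1 and -0.0051 to 0.18 for Timp3. Between the empty-virus groups they ran from -0.12 to 0.24 for Mmp9 and -0.027 to 0.057 for Timp3, and between the Cre groups from -0.12 to 0.17 for Mmp3 and -0.074 to 0.093 for Timp1. Mmp10 had 10 to 57 reads per library, which limits the precision of its values.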
